A study of Sus scrofa with 92 samples.

Results

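Liver of carbohydrate prefed (CPF) pigs was compared between 8 hours after resuscitation began (FR8) and Baseline (B) within the same animal. The comparison used 8 of the 92 libraries of the series, a B and an FR8 library from each of 4 of the 5 CPF animals. CPF animal 1 was left out because its FR8 library held 4388 counts on 812 identifiers. The remaining animals are called animals 2, 3, 4 and 5 and their values are always given in that order. The labels give survival as Died for animals 2 and 3 and as Lived for animals 4 and 5, and all 4 gave a library at 20 hours as well.

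The pigs were Yorkshire-Landrace by the labels and juvenile males by the study's methods. All animals of the study fasted overnight, and CPF animals then received a bolus of Karo syrup in water before induction. Each was anesthetized, instrumented and splenectomized, then took a captive bolt blow to the chest, bled from the inferior vena cava to a low systolic pressure, had its liver crushed with a clamp, and was resuscitated in a limited and then a full phase with fluid, shed blood and ventilation. B was biopsied after instrumentation, so it followed the syrup, the anesthesia and the surgery and is not an untouched liver. FR8 therefore differs from B by injury, shock, resuscitation, hours since the syrup, hours of anesthesia and time of day at once. No uninjured animal sampled at the same hours was analysed here, and these parts of the difference cannot be told apart. The crush came after B, so only the later biopsies are from a crushed liver, and each biopsy is a mixture of cells.

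The liver makes most plasma proteins, cholesterol and bile acids, stores glucose as glycogen, turns surplus sugar into fat, burns fatty acids to ketone bodies and disposes of amino nitrogen as urea. After injury, cytokines such as interleukin-6 act on hepatocytes through STAT3 to raise secretion of acute phase proteins, while other secreted proteins are made less. Load on the endoplasmic reticulum (ER) is met by the unfolded protein response, which adds chaperones, and sterol supply is set by a feedback loop in which low ER cholesterol turns on the genes of sterol synthesis.

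The libraries compared held 8444057 to 12036356 counts at B and 8855156 to 11929774 at FR8. Values are CPM, the count times 1e+06 over the library total and a scaling factor (TMM) that assumes most genes to be unchanged. TMM factors ran from 0.83 to 0.97 at B and from 0.91 to 1.37 at FR8. The fit held 16 libraries, those of animals 2 to 5 at B, 2 hours (FR2), FR8 and 20 hours (FR20), with a term for each animal, and tested genes whose CPM summed to 10 or more across them. Log2 fold changes are FR8 minus B with their standard errors, and adjusted p-values come from the quasi-likelihood test of edgeR, adjusted by Benjamini-Hochberg over all 11554 genes tested. A gene is called where its adjusted p is under 0.05 and its change at least 2-fold (1 on the log2 scale), and "rose" and "fell" are used of called genes alone. The labels name 1 biopsy per animal and time, so spread between biopsies of the same animal and time was not measured. The standard errors of this fit follow from the quasi-likelihood test on all 16 libraries, those at FR2 and FR20 included. They are therefore not the spread among animals of the FR8 minus B changes alone.

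Between B and FR8, 1299 of 11554 genes were called (11.2%), 518 rising (4.48%) and 781 falling (6.76%). With no threshold on size, 1958 genes had an adjusted p under 0.05. Of the genes that rose, 505 were higher at FR8 in 4 of 4 animals, and of those that fell, 743 were lower in 4 of 4. Among all 11554 genes tested, 2082 were higher and 2276 lower in 4 of 4. The calls come from these same animals, so a shared direction follows in part from the call and is given as a description. Changes of at least 4-fold were seen for 142 genes that rose and 215 that fell, and of at least 16-fold for 8 and 15. The split of calls depended on scaling. With library totals alone in place of TMM, 987 genes rose and 427 fell, so that 69.8% of calls were rises against 39.9% with TMM, and the median of the shared genes moved by 0.30 on the log2 scale. No call of the TMM fit changed sign under any alternative run. Counts were lowest without animal 5, when 265 genes were called, against 733 without animal 2, 781 without animal 3 and 1461 without animal 4.

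The 24 genes shown in the plot of leading genes are the 12 rising and the 12 falling genes whose adjusted p was smallest, so their separation is a consequence of that choice and is given as a description. Among those that rose, TLR2 (ENSSSCG00000009002), the receptor for bacterial lipoproteins, stood at 8.54, 12.9, 9.38 and 6.38 CPM at B and at 36.3, 56.03, 30.7 and 30.3 at FR8 (log2 fold change 2.04 ± 0.19, adjusted p = 0.000165). NNMT (ENSSSCG00000015054), which methylates nicotinamide, was at 58.2, 109, 86.9 and 155 CPM at B and 1889, 1016, 625 and 2049 at FR8 (log2 fold change 3.68 ± 0.46, adjusted p = 0.000697). LBP (ENSSSCG00000028758), the lipopolysaccharide binding protein that hands endotoxin to CD14, was at 110.3, 86.9, 158 and 155 and then 651, 381, 536 and 468 (log2 fold change 1.99 ± 0.25, adjusted p = 0.000766). The FR8 values of all 3 genes lay above their B values with no overlap, and the lowest FR8 value of NNMT was that of animal 4. LONP2 (ENSSSCG00000023391), the Lon protease of peroxisomes, went from 26.7, 14.7, 15.2 and 16.3 to 79.5, 65.9, 115 and 53.4 CPM (log2 fold change 2.12 ± 0.27, adjusted p = 0.000766). FOXA1 (ENSSSCG00000001940), a transcription factor that opens chromatin at liver genes, was at 7.42 to 12.1 CPM at B and 21.3 to 34.98 at FR8 (1.61 ± 0.21). Also in this group were COG6 (ENSSSCG00000009369) of the Golgi tethering complex (1.66 ± 0.2), GALNT2 (ENSSSCG00000010185), which starts mucin-type O-glycosylation (2.03 ± 0.27), and MLEC (ENSSSCG00000009914), an ER lectin for newly glucosylated glycans (2.37 ± 0.33). The remaining ones were GSKIP (ENSSSCG00000022930), a partner of GSK3 and protein kinase A (1.64 ± 0.2), CERS4 (ENSSSCG00000013595), a ceramide synthase (1.52 ± 0.21), SLC5A6 (ENSSSCG00000008550), the sodium-dependent multivitamin transporter (1.52 ± 0.21), and FGA (ENSSSCG00000008998), the fibrinogen alpha chain, which is described with the acute phase proteins.

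Among the genes that fell with the smallest adjusted p, MVK (ENSSSCG00000009931), mevalonate kinase of the sterol pathway, was at 327, 187, 292 and 261 CPM at B and 40.97, 13.5, 41.3 and 17.6 at FR8 (log2 fold change −3.38 ± 0.32, adjusted p = 0.000165). MIOX (ENSSSCG00000000961), which begins the breakdown of myo-inositol, was at 131, 147, 282 and 206 and then 9.92, 13.3, 7.87 and 9.003 (log2 fold change −4.11 ± 0.43, adjusted p = 0.000282). INMT (ENSSSCG00000016676), an amine N-methyltransferase, was at 332, 208, 281 and 342 and then 26.7, 18.95, 42.3 and 23.6 (log2 fold change −3.46 ± 0.38, adjusted p = 0.000407). In each of these the highest FR8 value was far below the lowest B value. BDH1 (ENSSSCG00000024109), the mitochondrial enzyme that makes beta-hydroxybutyrate, was at 142 to 281 CPM at B and 8.63 to 33.6 at FR8 (−3.61 ± 0.42). The nuclear receptor NR1I2 (ENSSSCG00000011890), the pregnane X receptor that governs drug metabolism genes, was at 81.7 to 161 and then 32.3 to 53.9 (−1.46 ± 0.18). The others of the 12 described here were FTCD (ENSSSCG00000027926), which passes the formimino group of histidine to folate (−2.01 ± 0.23), ACOT13 (ENSSSCG00000001093), an acyl-CoA thioesterase (−1.65 ± 0.17), TMEM86B (ENSSSCG00000003302), a lysoplasmalogenase (−2.74 ± 0.28), ATP1B1 (ENSSSCG00000006296), the beta subunit of the sodium pump (−1.72 ± 0.2), and FAM20A (ENSSSCG00000017258) of the secretory pathway kinase family (−2.74 ± 0.33). ACOT13 alone of the 12 had overlapping ranges, 43.00 to 132 CPM at B and 13.2 to 44.9 at FR8. A second, weaker identifier also carries the symbols MIOX, FGA, FGB, IDI1 and PER2, so reads of these genes may be split between copies of the gene model. The second identifiers are lower in level, and their log2 fold changes were 3.73 for FGB (against 1.43), −5.72 for IDI1, 2.12 for FGA, −2.03 for MIOX (not called) and −2.61 for PER2 (not called). The levels of these genes are therefore uncertain, as are the sizes of the changes of FGB, MIOX and PER2.

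**Figure D1:**
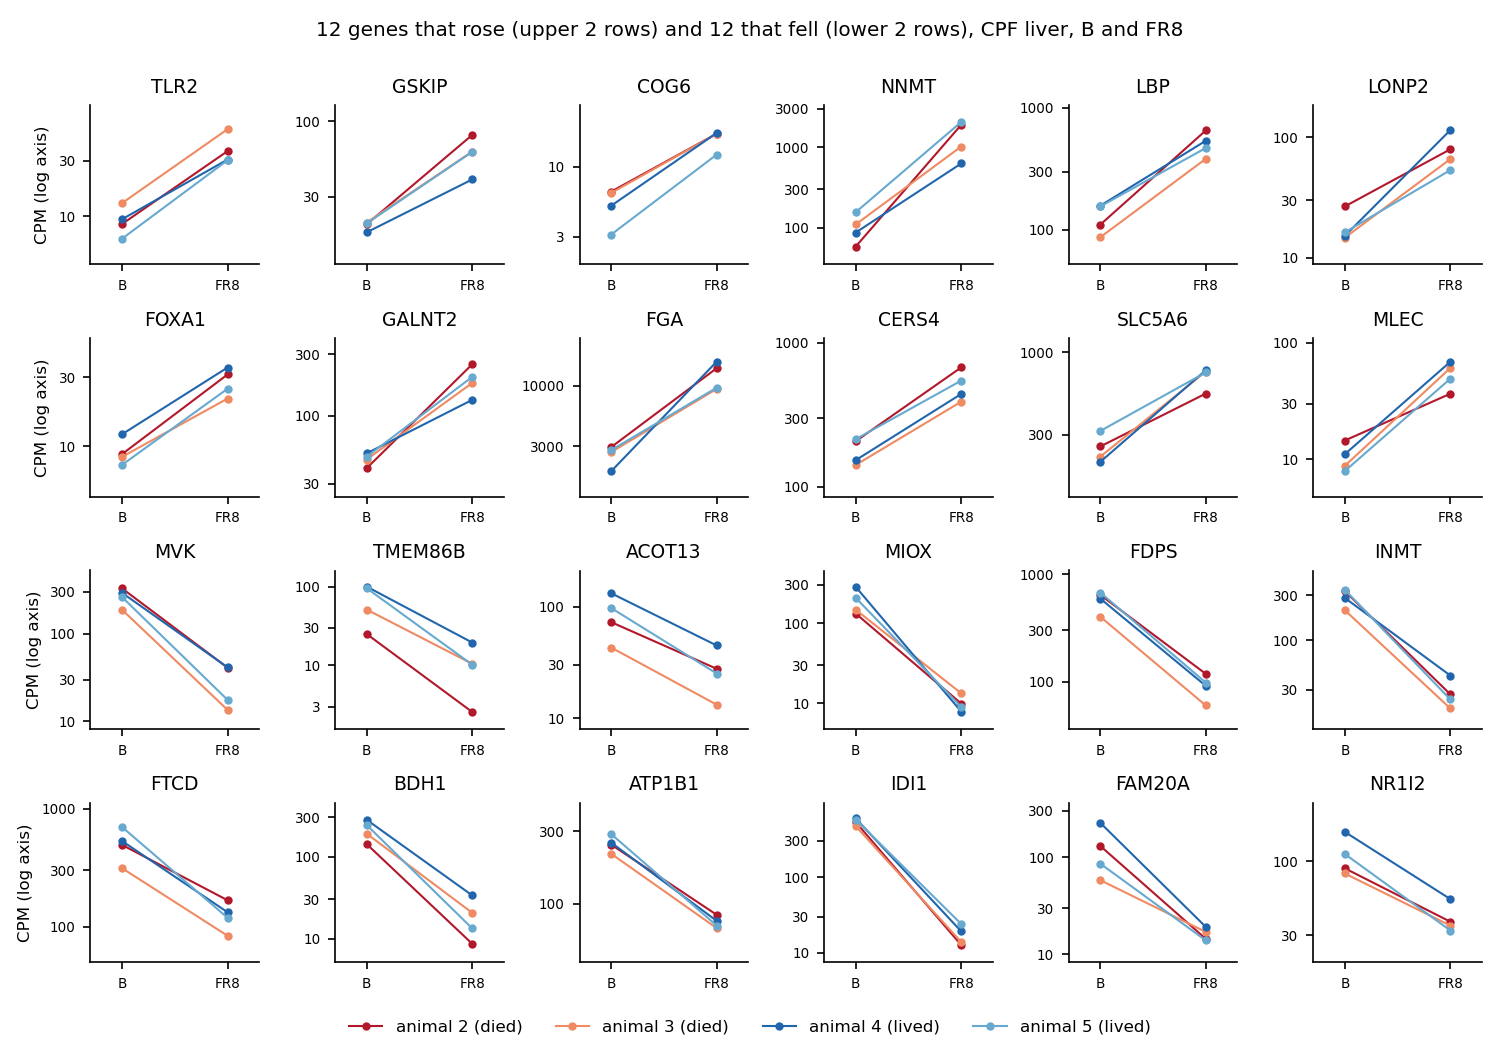
CPM on a log axis at B and FR8 for the 12 rising and 12 falling genes of smallest adjusted p, with 1 line for each of the 4 CPF animals. All lines of a panel run the same way, upward in the upper rows and downward in the lower rows.

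Genes were also grouped in 18 lists by function, each list described by its counts and by its median beside the median of all genes tested, which was 0.018 on the log2 scale. The lists with the lowest medians were cholesterol synthesis and uptake (−2.56), fatty acid synthesis (−2.14), the circadian clock (−1.43) and the urea cycle and amino acid catabolism (−1.27). Those with the highest were positive acute phase proteins (1.52), the unfolded protein response (1.35) and cytosolic and mitochondrial heat shock proteins (1.06). The plot of the 18 lists shows that even these held members on the other side of 0.

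**Figure D2:**
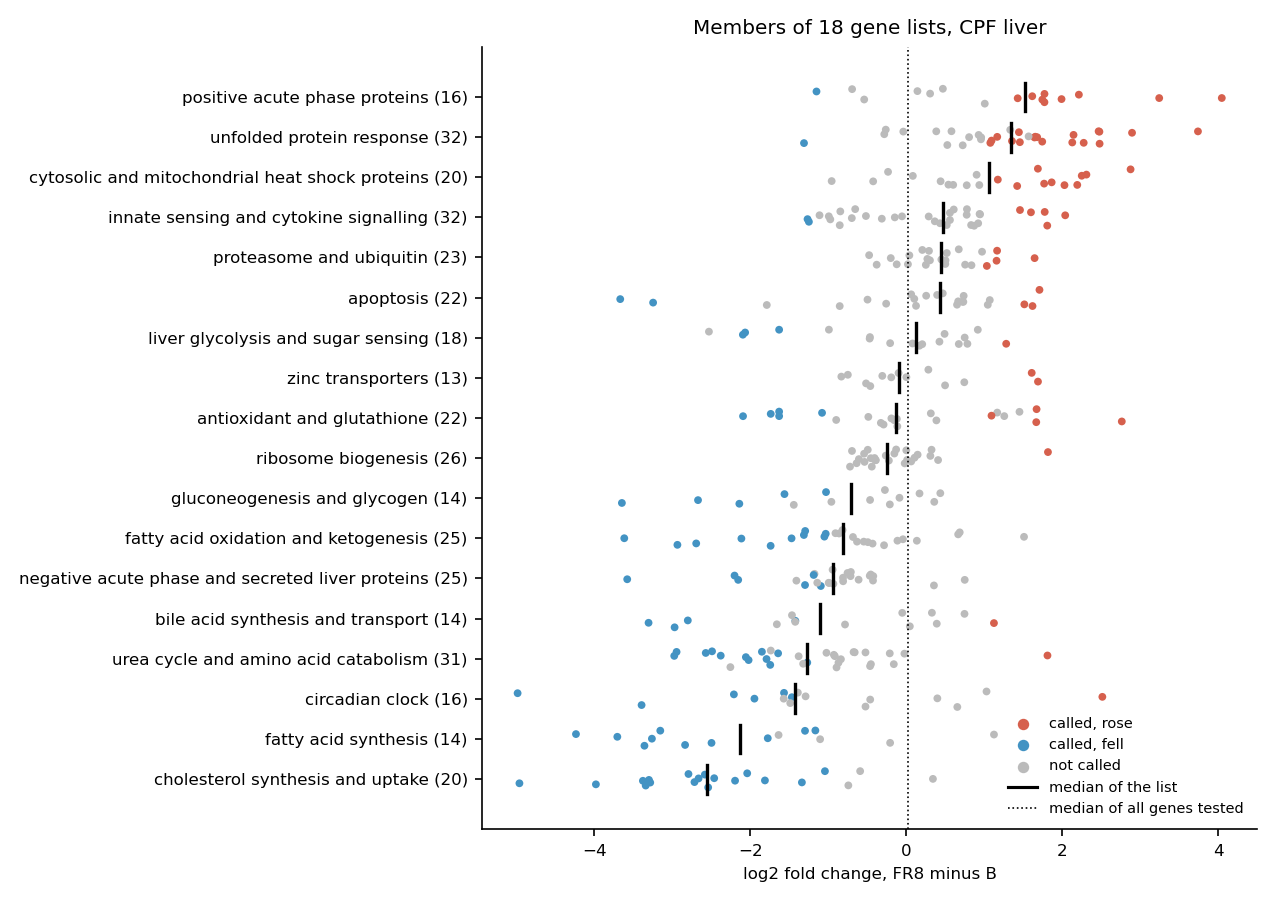
Log2 fold change FR8 minus B (x axis) of every tested member of 18 gene lists (rows, with the number tested), colored by call, with a bar at each list's median and a dotted line at the median of all genes tested. Cholesterol synthesis and uptake lies lowest with a median of −2.56 and positive acute phase proteins highest with 1.52.

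Genes of cholesterol synthesis and uptake fell along most of the pathway. Of 26 symbols on the list 22 matched an identifier and 20 were tested, and 17 of the 20 fell and 0 rose, beside 6.76% of all genes tested falling. The count of falling members was 9 without animal 5. FR8 values lay wholly below B values for 14 of the 20 members, against 10.4% of all genes tested. Among the entry steps HMGCS1, which makes HMG-CoA, fell from 1141, 810.2, 491 and 648 CPM at B to 54.5, 60.9, 61.04 and 124 at FR8 (−3.34 ± 0.64). Animal 2 had the highest HMGCS1 level at B and the lowest at FR8. IDI1 (ENSSSCG00000029066), which isomerizes isopentenyl diphosphate, was at 532, 470.4, 593 and 575 CPM at B and 12.7, 13.9, 19.2 and 24.04 at FR8 (log2 fold change −4.96 ± 0.59, adjusted p = 0.000539). FDPS (ENSSSCG00000006512), which makes farnesyl diphosphate, went from 641, 402, 592 and 674 to 119, 60.5, 91.96 and 98.5 (log2 fold change −2.66 ± 0.29, adjusted p = 0.000407). These 2 enzymes were close in level among animals at B and again at FR8.

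The sterol-specific steps fell as well. SQLE (ENSSSCG00000005970), squalene epoxidase, was at 444, 309.7, 299 and 271 CPM at B and 9.83, 12.1, 23.1 and 43.8 at FR8 (log2 fold change −3.98 ± 0.67, adjusted p = 0.00256). SQLE at FR8 was lower in the animals that died (9.83 and 12.1 CPM) than in those that lived (23.1 and 43.8). This order is given as a description. The change of SQLE from B to FR8 was among those compared between died and lived animals by the quasi-likelihood test. That comparison, described below, called 0 of 11554 genes (smallest adjusted p = 0.112) and could detect few differences. Without animal 5 the log2 fold change of SQLE was −4.6. MSMO1, a sterol demethylating oxidase, was at 1236, 1114, 811 and 865 and then 58.3, 72.3, 179 and 129 (−3.3 ± 0.55), and CYP51A1, lanosterol demethylase, at 612, 681, 588 and 758 and then 54.2, 82.9, 154 and 137 (−2.71 ± 0.44). Falls of FDFT1, LSS, TM7SF2, SC5D, DHCR7, ACAT2 and CYB5R3 ranged from −2.79 ± 0.36 for ACAT2 to −1.04 ± 0.21 for CYB5R3. INSIG1, the ER anchor that holds the sterol sensor back and is itself a target of it, fell from 1021, 795, 114 and 1635 to 161, 175, 40.5 and 55.3 CPM (−3.28 ± 1.06). Its partner SCAP, the sensor that escorts SREBP to the Golgi, was at 44.9, 39.2, 42.1 and 33.1 and then 49.8, 52.6, 53.5 and 45.1 and was not called (log2 fold change 0.34 ± 0.23, adjusted p = 0.318). NSDHL (−0.74 ± 0.21) and HSD17B7 (−0.59 ± 0.3) were not called either. In the plot in pathway order the B and FR8 points separate for most enzymes but not for NSDHL and HSD17B7.

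**Figure D3:**
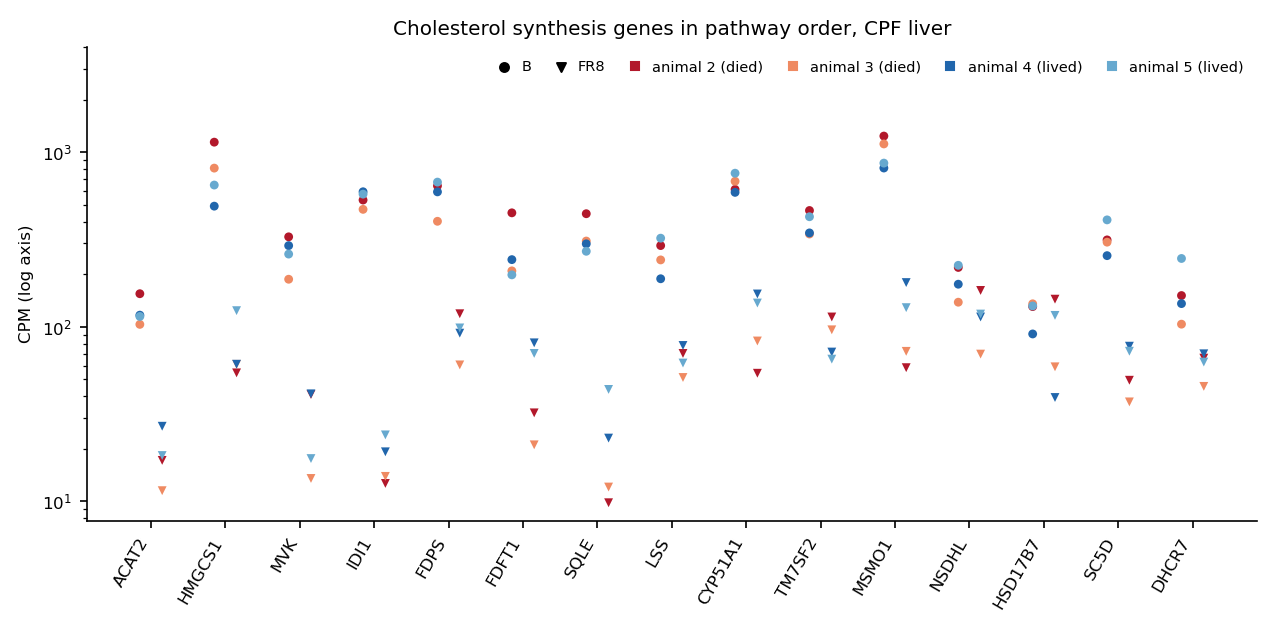
CPM on a log axis at B (circles) and FR8 (triangles) of 15 cholesterol synthesis genes in pathway order, colored by CPF animal. IDI1 lies at 470 to 593 CPM at B and 12.7 to 24.0 at FR8, while the points of NSDHL and HSD17B7 overlap.

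Fatty acid synthesis showed a similar direction. Of 14 members tested, 10 fell and 0 rose, beside 6.76% and 4.48% of all genes, with a median of −2.14. The count of falls was 3 on leaving out animal 5. FASN (ENSSSCG00000029944), fatty acid synthase, was at 334, 133, 62.98 and 89.7 CPM at B and 10.196, 21.4, 15.3 and 4.19 at FR8 (log2 fold change −3.7 ± 1.06, adjusted p = 0.03). LPIN1 (ENSSSCG00000008624), the phosphatidate phosphatase lipin 1, was at 58.5, 68.4, 17.2 and 132 and then 2.57, 7.24, 4.22 and 3.07 (log2 fold change −4.23 ± 1.08, adjusted p = 0.0176). Both varied widely among animals at B, and animal 4 had the lowest B value of each. Desaturase genes fell too. FADS1 (ENSSSCG00000024015), the delta-5 desaturase, went from 963, 522, 1146 and 1304 to 201, 54.8, 84.01 and 58.3 CPM (log2 fold change −3.36 ± 0.48, adjusted p = 0.00132), and SCD, stearoyl-CoA desaturase, from 1836, 1216, 682 and 484 to 234, 69.1, 164 and 40.4 (−3.26 ± 0.53). FADS2 (−3.15 ± 0.65), the elongase ELOVL6 (−2.5 ± 0.81), the acetate-activating ACSS2 (−2.84 ± 0.62), TECR (−1.3 ± 0.28), DGAT1 (−1.16 ± 0.23) and MLXIPL, the sugar-sensing factor ChREBP (−1.77 ± 0.27), also fell. ACLY, which supplies cytosolic acetyl-CoA, was not called (2.84 to 18.1 CPM at B, 3.77 to 12.5 at FR8, log2 fold change −0.21 ± 0.58, adjusted p = 0.835), and neither were ACACA (log2 fold change −1.64 ± 0.61, adjusted p = 0.0806) and the NADPH source ME1 (log2 fold change 1.13 ± 0.49, adjusted p = 0.126). Without animal 5 the calls of LPIN1 and FASN were lost, at log2 fold changes of −3.42 and −3.34. LPIN1 and FASN were no longer called without animal 3 (log2 fold changes −4.64 and −4.17). Leaving out animal 2 ended the calls of LPIN1 and FASN (log2 fold changes −4.17 and −3.33). FASN was not called either in the fit with no term for the animal.

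Fatty acid oxidation and ketogenesis lay lower too, less uniformly. Of 25 members tested, 10 fell and 0 rose, beside 6.76% and 4.48% of all genes, and the median was −0.82. The falling count was 6 on leaving out animal 5 and 6 on leaving out animal 3. CAT (ENSSSCG00000013302), peroxisomal catalase, was at 5434, 5252, 7089.8 and 7367 CPM at B and 757, 609, 1956 and 567 at FR8 (log2 fold change −2.93 ± 0.45, adjusted p = 0.00175), with animal 4 the highest at FR8. PDK4 (ENSSSCG00000015334), the kinase that shuts pyruvate dehydrogenase during fasting, was at 554, 621, 110.3 and 319 and then 55.1, 199, 27.7 and 26.7 (log2 fold change −2.69 ± 0.85, adjusted p = 0.0428), and the FR8 value of animal 3 exceeded the B value of animal 4. CPT1A, the gate of mitochondrial fatty acid import, went from 293, 207, 422 and 325 to 115, 86.9, 97.8 and 64.4 (−1.74 ± 0.28). Falls of ACAA2, ACAA1, ACAD10, ACAD11, ACADL and HADH, which act within beta-oxidation, ran from −2.11 ± 0.29 to −1.03 ± 0.27. The trifunctional protein genes HADHA (−0.49 ± 0.16) and HADHB (−0.11 ± 0.16), ACADM (−0.042 ± 0.24) and the receptor PPARA (0.67 ± 0.66) were not called, and ACADVL had the highest value of the list at 1.51 ± 1.04 (adjusted p = 0.336). The call of PDK4 did not hold without animal 5 (log2 fold change −2.37). Without animal 3 the call of PDK4 was lost, at a log2 fold change of −3.24. PDK4 was no longer called without animal 2 (log2 fold change −2.37).

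In gluconeogenesis and glycogen metabolism 5 of 14 members fell and 0 rose (median −0.71), beside 6.76% and 4.48% of all genes. The falling count was 0 on leaving out animal 5 and 1 on leaving out animal 2. GYS2 (ENSSSCG00000000577), liver glycogen synthase, was at 434, 461, 111 and 400.4 CPM at B and 65.3, 74.2, 112 and 20.5 at FR8 (log2 fold change −2.67 ± 0.7, adjusted p = 0.0205). Animals 2, 3 and 5 were high at B and lower at FR8, whereas animal 4 was at nearly the same level at both times. PPP1R3G (ENSSSCG00000000997), a subunit that targets phosphatase to glycogen, was at 2.91, 10.1, 3.55 and 9.51 and then 0.459, 0.756, 0.243 and 0.614 (log2 fold change −3.65 ± 0.86, adjusted p = 0.0124). Its FR8 values are levels of a few counts, so the size of its change is uncertain. SLC37A4 (ENSSSCG00000015105), the ER glucose-6-phosphate transporter, went from 522, 524, 452 and 557 to 153, 166, 132 and 57.2 (log2 fold change −2.14 ± 0.53, adjusted p = 0.0155). PCK2, mitochondrial phosphoenolpyruvate carboxykinase (−1.56 ± 0.28), and PHKA2, a phosphorylase kinase subunit (−1.03 ± 0.23), fell as well. The cytosolic PCK1 was at 1667, 2759, 119 and 3747 and then 1449, 2194, 321 and 182 and was not called (log2 fold change −1.44 ± 1.14, adjusted p = 0.405), and the phosphorylase PYGL stood at −0.086 ± 0.34. Leaving out animal 5 ended the calls of PPP1R3G, GYS2 and SLC37A4 (log2 fold changes −3.37, −2.16 and −1.71). The call of GYS2 did not hold without animal 3 (log2 fold change −2.59). Without animal 2 the calls of PPP1R3G, GYS2 and SLC37A4 were lost, at log2 fold changes of −3.93, −2.59 and −2.26.

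Glycolysis and sugar sensing genes lay on both sides of 0. Of 18 members tested 1 rose and 3 fell, beside 4.48% and 6.76% of all genes, and the median was 0.13, near that of all genes. LDHA (ENSSSCG00000013366), lactate dehydrogenase A, rose from 139.9, 169, 166 and 136 to 511, 280.4, 215 and 475 CPM (log2 fold change 1.28 ± 0.37, adjusted p = 0.0297). KHK (ENSSSCG00000008556), fructokinase, fell from 385, 295, 581 and 547 to 149, 76.2, 107 and 83.4 (log2 fold change −2.09 ± 0.35, adjusted p = 0.00252). The pyruvate dehydrogenase kinase PDK2 (ENSSSCG00000027198) (−2.07 ± 0.42) and the D-lactate dehydrogenase LDHD (ENSSSCG00000002712) (−1.63 ± 0.32) fell too. ENO1 (0.92 ± 0.22), PGAM1 (0.79 ± 0.18) and GAPDH (0.49 ± 0.34) were not called. LDHA, PDK2 and LDHD were no longer called without animal 5 (log2 fold changes 1.07, −1.5 and −1.41). Leaving out animal 2 ended the call of LDHA (log2 fold change 1.06).

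Nitrogen handling was lower. In the list of urea cycle and amino acid catabolism 12 of 31 members fell and 1 rose, beside 6.76% and 4.48% of all genes. The median was −1.27, and 30 of the 31 estimates were below 0. The falling count was 6 on leaving out animal 5 and 7 on leaving out animal 2. KMO (ENSSSCG00000025686), of the kynurenine route of tryptophan breakdown, was at 348, 219, 321 and 454 CPM at B and 43.8, 59.2, 31.4 and 31.8 at FR8 (log2 fold change −2.97 ± 0.65, adjusted p = 0.00909). GATM (ENSSSCG00000004672), which makes the creatine precursor, was at 2624, 2292, 2796 and 1419 and then 540.3, 153, 659.7 and 119 (log2 fold change −2.94 ± 0.49, adjusted p = 0.00253). CDO1 (ENSSSCG00000014219), cysteine dioxygenase, went from 1214, 1238, 1706 and 2188 to 557, 148, 209 and 261 (log2 fold change −2.57 ± 0.46, adjusted p = 0.00343), and animal 2 changed least. SARDH (−2.49 ± 0.36), the glutamine enzymes GLUL (−2.38 ± 0.54) and GLS2 (−2.06 ± 0.42), BHMT (−1.85 ± 0.32), HIBADH (−1.79 ± 0.3), IVD (−1.74 ± 0.28) and BCKDHB (−1.27 ± 0.35) were among the other falls. Of the urea cycle proper, ASS1 (log2 fold change −0.87 ± 0.44, adjusted p = 0.189), ASL (log2 fold change −0.93 ± 0.29, adjusted p = 0.0437) and ARG1 (log2 fold change −0.16 ± 0.58, adjusted p = 0.875) were not called. The exception was HAL (ENSSSCG00000000892), histidine ammonia-lyase, which rose from 43.7, 50.03, 16.5 and 55.99 to 135, 196, 71.99 and 178 CPM (log2 fold change 1.81 ± 0.35, adjusted p = 0.00497) while FTCD, further down the same route, fell. The call of KMO did not hold without animal 5 (log2 fold change −2.63). Without animal 2 the call of KMO was lost, at a log2 fold change of −2.97.

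Genes of bile acid uptake, conjugation and synthesis were among those that fell. Of 14 members 4 fell and 1 rose, beside 6.76% and 4.48% of all genes, with a median of −1.1, and the falling count was 0 on leaving out animal 5, 7 on leaving out animal 4 and 1 on leaving out animal 2. SLC10A1 (ENSSSCG00000002313), the sodium-taurocholate transporter NTCP, was at 614, 665, 813 and 991 CPM at B and 84.7, 62.1, 173 and 39.2 at FR8 (log2 fold change −3.3 ± 0.57, adjusted p = 0.00295). CYP7A1 (ENSSSCG00000006238), the rate-limiting enzyme of bile acid synthesis, was at 135, 138, 103 and 116 and then 9.46, 13.8, 51.3 and 11.2 (log2 fold change −2.8 ± 0.64, adjusted p = 0.0108). BAAT (ENSSSCG00000005398), which conjugates bile acids, went from 429.6, 369, 408 and 257 to 42.7, 77.4, 154 and 14.8 (log2 fold change −2.97 ± 0.65, adjusted p = 0.00907). Animal 4 had the highest FR8 value of all 3 genes, and no FR8 value reached a B value. Without animal 4 the log2 fold change of CYP7A1 was −3.49. Over the whole list the median change per animal, in log2 of CPM plus 1, was −0.88, −1.32, 0.85 and −1.31, so that of animal 4 lay above 0 and those of the others below. CYP27A1, a sterol hydroxylase of the alternative route, fell as well (−1.42 ± 0.31). ABCC3 (ENSSSCG00000017561), an efflux pump of the sinusoidal side, rose from 36.6, 24.9, 36.5 and 26.8 to 35.00, 69.4, 109 and 68.9 CPM (log2 fold change 1.13 ± 0.28, adjusted p = 0.0161), in 3 of the 4 animals. The canalicular pump ABCB11 (log2 fold change −1.46 ± 0.59, adjusted p = 0.101) and the bile acid receptor NR1H4 (−0.05 ± 0.26) were not called. SLC10A1, BAAT, CYP7A1 and ABCC3 were no longer called without animal 5 (log2 fold changes −2.88, −2.46, −2.56 and 1.08). Leaving out animal 4 ended the call of ABCC3 (log2 fold change 0.95). The call of ABCC3 did not hold without animal 3 (log2 fold change 1.03). Without animal 2 the calls of BAAT and CYP7A1 were lost, at log2 fold changes of −2.79 and −2.54. BAAT was not called in the fit with no term for the animal.

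Clock genes, which cycle over the day in liver, differed between the times. Of 16 members 6 fell and 1 rose (median −1.43), beside 6.76% and 4.48% of all genes. The falling count was 2 on leaving out animal 5, 3 on leaving out animal 3 and 3 on leaving out animal 2. PER2 (ENSSSCG00000016338) was at 55.6, 35.3, 25.9 and 35.03 CPM at B and 2.39, 0.693, 1.704 and 0.307 at FR8 (log2 fold change −4.98 ± 0.69, adjusted p = 0.0012), and PER1 (ENSSSCG00000017983) at 121, 136, 129 and 199.6 and then 27.6, 26.6, 1.95 and 6.45 (log2 fold change −3.39 ± 0.94, adjusted p = 0.0255). Both encode repressors of the CLOCK complex. DBP (ENSSSCG00000003148), an output factor, was at 3.699, 2.904, 2.84 and 3.65 and then 1.102, 0.441, 0.974 and 0.102 (log2 fold change −2.21 ± 0.7, adjusted p = 0.0442), a low level at both times. NR1D2, a REV-ERB repressor (−1.95 ± 0.35), and CRY1 (−1.47 ± 0.45) also fell. NPAS2 (ENSSSCG00000008171), the CLOCK-like activator, rose from 0.705, 0.843, 1.42 and 0.781 to 4.501, 7.74, 3.08 and 6.34 (log2 fold change 2.52 ± 0.48, adjusted p = 0.00451), whereas BMAL1 (log2 fold change 0.66 ± 0.53, adjusted p = 0.419) and CLOCK (log2 fold change 1.03 ± 0.69, adjusted p = 0.322) were not called. The hour of the day of either biopsy is not in the labels, so the part of time of day in these values was not tested. NPAS2, PER1 and DBP were no longer called without animal 5 (log2 fold changes 2.34, −2.76 and −1.86). Leaving out animal 3 ended the calls of PER1 and DBP (log2 fold changes −3.84 and −2.03). The calls of PER1 and DBP did not hold without animal 2 (log2 fold changes −4.06 and −2.41). DBP was not called with library totals alone or with upper quartile scaling either.

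Acute phase proteins, which hepatocytes secrete in inflammation, moved upward as a group. Of 28 symbols 17 matched and 16 were tested, and 9 of the 16 rose and 1 fell, beside 4.48% of all genes rising. The median was 1.52 and the rising count was 4 on leaving out animal 5. LCN2 (ENSSSCG00000005638), lipocalin 2, which binds bacterial siderophores, was at 1.06, 0.937, 0.569 and 1.04 CPM at B and 31.3, 14.4, 10.3 and 7.67 at FR8 (log2 fold change 4.05 ± 0.87, adjusted p = 0.0082). ITIH4 (ENSSSCG00000011453), a major acute phase protein of the pig, was at 1325, 1022, 846 and 1259 and then 24235, 6406, 8299 and 9552 (log2 fold change 3.24 ± 0.53, adjusted p = 0.00221). All FR8 values of both exceeded all B values, and animal 2 was the highest at FR8 for both. FGA was at 2936, 2660.4, 1816 and 2762 CPM at B and 14143, 9357, 16119 and 9587 at FR8 (log2 fold change 2.21 ± 0.3, adjusted p = 0.000975), FGG, the gamma chain, at 10426, 10839, 11676 and 12452 and then 53069, 25435, 35699.9 and 44141 (log2 fold change 1.75 ± 0.33, adjusted p = 0.00437), and FGB (ENSSSCG00000008997), the beta chain, at 2707, 3703, 5636 and 5474 and then 15583, 8629, 8905 and 14821 (log2 fold change 1.43 ± 0.38, adjusted p = 0.0216). CRP (1.77 ± 0.42), the zinc importer SLC39A14 (1.77 ± 0.28) and STEAP4 (1.62 ± 0.35) rose with LBP. The list's exception was ITIH3 (ENSSSCG00000011451), which fell from 3383, 2659, 3066 and 2323 to 1774, 1036, 1851 and 802 CPM (log2 fold change −1.15 ± 0.24, adjusted p = 0.00722). A2M (0.31 ± 0.27), C3 (0.14 ± 0.49), CFB (−0.54 ± 0.24), CP (0.47 ± 0.24) and HPX (−0.69 ± 0.26) were not called. Without animal 5 the calls of LCN2, ITIH3 and FGB were lost, at log2 fold changes of 4.41, −1.0 and 1.46. FGB was no longer called without animal 3 (log2 fold change 1.53). Leaving out animal 2 ended the calls of LCN2 and FGB (log2 fold changes 3.7 and 1.14). ITIH3 was not called with library totals alone or with no term for the animal.

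Other secreted liver proteins lay lower. Of 25 members tested 6 fell and 0 rose, beside 6.76% and 4.48% of all genes. Below 0 were 23 of the 25 estimates, and the median was −0.93. The falling count was 1 on leaving out animal 5, 10 on leaving out animal 4, 1 on leaving out animal 3, 2 on leaving out animal 2 and 3 with library totals alone. SERPINA6 (ENSSSCG00000002475), corticosteroid-binding globulin, was at 389, 413, 486 and 377 CPM at B and 37.6, 35.2, 33.4 and 29.8 at FR8 (log2 fold change −3.58 ± 0.6, adjusted p = 0.00259), a narrow range at both times. IGFBP1 (ENSSSCG00000016728), an insulin-repressed binding protein of the insulin-like growth factors, was at 2096, 3432, 1668 and 3617 and then 1448, 777, 198 and 390.3 (log2 fold change −2.2 ± 0.68, adjusted p = 0.0402), and IGFALS (ENSSSCG00000008013), the subunit that holds them in plasma, at 67.1, 32.5, 54.9 and 80.1 and then 19.4, 8.75, 15.2 and 10.7 (log2 fold change −2.15 ± 0.63, adjusted p = 0.0312). ITIH1 (−1.3 ± 0.36), FETUB (−1.19 ± 0.38) and PROC, the protein C zymogen (−1.09 ± 0.29), fell too. ALB (ENSSSCG00000008948), albumin, was at 95336, 131316, 167739 and 141475 CPM at B and 44908, 45241, 76596 and 42088 at FR8. It was lower in 4 of 4 animals and was not called (log2 fold change −1.41 ± 0.48, adjusted p = 0.058), and the same held for TF, transferrin (log2 fold change −1.14 ± 0.4, adjusted p = 0.0615). Both were called under several alternatives, ALB under 7 and TF under 6, among them DESeq2 and the fit without animal 4 (log2 fold changes −1.46 and −1.26). The calls of IGFBP1 and IGFALS did not hold without animal 5 (log2 fold changes −1.69 and −1.83). Without animal 3 the calls of IGFBP1 and IGFALS were lost, at log2 fold changes of −2.2 and −2.2. IGFBP1 and IGFALS were no longer called without animal 2 (log2 fold changes −2.79 and −2.3). Neither IGFBP1 nor IGFALS was called with no term for the animal.

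Innate sensing and cytokine signaling genes moved in both directions. Of 32 members tested 5 rose and 2 fell, beside 4.48% and 6.76% of all genes, so that the falling share is near that of all genes (median 0.48). Rising counts were 3 on leaving out animal 5, 9 on leaving out animal 4, 3 on leaving out animal 3 and 10 with library totals alone. Falling counts were 1 on leaving out animal 5, 1 on leaving out animal 4, 1 on leaving out animal 3 and 0 with library totals alone. MYD88 (ENSSSCG00000011251), the adaptor of most Toll-like receptors, was at 29.2, 24.3, 26.7 and 24.4 CPM at B and 91.7, 91.4, 84.01 and 103 at FR8 (log2 fold change 1.81 ± 0.26, adjusted p = 0.00132), a tight range at both times. STAT3 (ENSSSCG00000017403), the transcription factor of interleukin-6 signaling, was at 37.3, 76.7, 40.7 and 66.3 and then 85.8, 260.1, 352 and 148 (log2 fold change 1.78 ± 0.35, adjusted p = 0.00569), with animal 4 the highest at FR8. The oncostatin M receptor OSMR (1.46 ± 0.4) and the decoy receptor IL1R2 (1.6 ± 0.38) rose as well. CD14 (ENSSSCG00000014369), the endotoxin co-receptor, fell from 1135, 964, 1118 and 1282 to 549, 309, 592 and 492 CPM (log2 fold change −1.26 ± 0.27, adjusted p = 0.00871). NFKBIA (ENSSSCG00000001952), which holds NF-kappaB in the cytoplasm, fell from 57.8, 88.1, 111 and 67.8 to 31.97, 27.9, 26.4 and 47.5 (log2 fold change −1.25 ± 0.26, adjusted p = 0.00662). Neither fall was called with library totals alone. TLR4 (log2 fold change 0.29 ± 0.28, adjusted p = 0.497), TNFAIP3 (log2 fold change −1.11 ± 0.48, adjusted p = 0.126), IL6R (−0.15 ± 0.33) and IL6ST (0.78 ± 0.29) were not called. Leaving out animal 5 ended the call of CD14 (log2 fold change −1.2). The call of NFKBIA did not hold without animal 4 (log2 fold change −0.98). Without animal 3 the call of NFKBIA was lost, at a log2 fold change of −1.09.

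The unfolded protein response list held the most rising members. Of 32 tested 18 rose and 1 fell (median 1.35), beside 4.48% and 6.76% of all genes. FR8 values lay wholly above B values for 21 of the 32, against 8.97% of all genes tested. The rising count was 5 on leaving out animal 5. HSPA5 (ENSSSCG00000005601), the ER chaperone BiP, was at 1008, 541, 441 and 429 CPM at B and 8325, 3390.2, 3072 and 3527 at FR8 (log2 fold change 2.9 ± 0.46, adjusted p = 0.00215). CRELD2 (ENSSSCG00000000981), a secreted ER stress protein, was at 42.5, 24.3, 41.9 and 27.1 and then 864, 259, 248 and 625 (log2 fold change 3.74 ± 0.76, adjusted p = 0.00616). HYOU1 (ENSSSCG00000015106), the ER partner chaperone GRP170, went from 216, 126, 101 and 110.4 to 1109, 624, 584 and 724 (log2 fold change 2.48 ± 0.4, adjusted p = 0.00221). Animal 2 had the highest FR8 value of all 3. Other chaperones and folding enzymes that rose were SDF2L1 (2.48 ± 0.56), DNAJB11 (2.28 ± 0.47), HSP90B1 (2.15 ± 0.43), MANF (2.13 ± 0.41), PDIA4 (1.68 ± 0.42), DNAJC3 (1.65 ± 0.26) and CALR (1.45 ± 0.39). Quality control and export genes that rose included EDEM1, which sends misfolded glycoproteins to degradation (1.74 ± 0.46), the coat proteins SEC24D (1.46 ± 0.36) and SEC23A (1.09 ± 0.22), and the cargo receptor LMAN1 (1.17 ± 0.29). The ER-tethered factors CREB3L3 (2.47 ± 0.41) and CREB3L2 (1.66 ± 0.42) rose.

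None of the 3 stress sensors of the ER membrane was called higher. ERN1 (ENSSSCG00000017279), the sensor IRE1, fell from 147, 107, 173 and 123.3 to 85.98, 54.9, 52.9 and 35.8 CPM (log2 fold change −1.31 ± 0.36, adjusted p = 0.0236). EIF2AK3, the sensor PERK, was at 23.2 to 39.5 CPM at B and 18.3 to 31.9 at FR8 (log2 fold change −0.26 ± 0.23, adjusted p = 0.466), and ATF6 at 1.33 ± 0.44 (adjusted p = 0.0504). The factors XBP1 (log2 fold change 0.73 ± 0.24, adjusted p = 0.0514) and ATF4 (log2 fold change −0.037 ± 0.24, adjusted p = 0.933), and the ATF4 targets ASNS (0.53 ± 0.7) and TRIB3 (0.58 ± 0.74), were not called. CRELD2 and ERN1 were no longer called without animal 5 (log2 fold changes 3.54 and −1.11). Leaving out animal 2 ended the call of ERN1 (log2 fold change −1.48). ERN1 was not called with no term for the animal.

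Cytosolic and mitochondrial heat shock proteins rose in 10 of 20 members with 0 falling (median 1.06), beside 4.48% and 6.76% of all genes. The rising count was 6 on leaving out animal 5. CRYAB (ENSSSCG00000015025), the small heat shock protein alpha B-crystallin, was at 41.3, 53.7, 44.1 and 48.7 CPM at B and 268, 587, 197 and 595 at FR8 (log2 fold change 2.88 ± 0.46, adjusted p = 0.00215). DNAJB1 (ENSSSCG00000013784), a co-chaperone of HSP70, was at 72.3, 104, 38.95 and 39.8 and then 366, 189, 294 and 214 (log2 fold change 2.31 ± 0.44, adjusted p = 0.00463), and HSPH1 (ENSSSCG00000009334), the HSP110 disaggregase, at 40.2, 69.7, 30.8 and 33.7 and then 139, 157, 335 and 115 (log2 fold change 2.25 ± 0.5, adjusted p = 0.0097). The highest FR8 value of HSPH1 was that of animal 4, without which its log2 fold change was 1.61, and those of CRYAB were in animals 3 and 5. HSPD1 (ENSSSCG00000016077), the mitochondrial chaperonin HSP60, went from 583, 649, 529.8 and 683 to 1607, 1318, 1871 and 1647 (log2 fold change 1.42 ± 0.24, adjusted p = 0.00274), while its partner HSPE1 was not called (log2 fold change 0.94 ± 0.25, adjusted p = 0.0235). HSPA8 (2.19 ± 0.42), HSP90AA1 (2.03 ± 0.31), CHORDC1 (1.87 ± 0.32), STIP1 (1.77 ± 0.34), DNAJA1 (1.69 ± 0.37) and PTGES3 (1.18 ± 0.25) also rose. HSF1, the transcription factor of the heat shock response, was at −0.23 ± 0.16 (adjusted p = 0.326) and BAG3 at −0.96 ± 0.49 (adjusted p = 0.192). The calls of DNAJB1 and HSPH1 did not hold without animal 5 (log2 fold changes 2.31 and 2.4).

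Proteasome and ubiquitin genes shifted less. Of 23 members 4 rose and 0 fell (median 0.45), beside 4.48% and 6.76% of all genes. The rising count was 0 on leaving out animal 5 and 7 with library totals alone. UBE2W (ENSSSCG00000006177), a ubiquitin-conjugating enzyme, was at 5.99, 9.27, 6.11 and 3.65 CPM at B and 21.95, 13.2, 20.7 and 21.9 at FR8 (log2 fold change 1.65 ± 0.29, adjusted p = 0.00321). VCP (ENSSSCG00000005300), the segregase that draws proteins out of the ER membrane, was at 329, 287, 251 and 313 and then 727, 629, 635 and 649 (log2 fold change 1.17 ± 0.22, adjusted p = 0.00465), and PSMA5 (ENSSSCG00000006830), a core subunit, at 78.9, 61.9, 95.1 and 76.3 and then 157, 159, 184 and 197 (log2 fold change 1.16 ± 0.26, adjusted p = 0.00932). The FR8 values of VCP were close together, as were those of PSMA5, and no value at B reached them. The polyubiquitin gene UBB (−0.38 ± 0.22) was not called. Without animal 5 the calls of UBE2W, VCP and PSMA5 were lost, at log2 fold changes of 1.39, 1.22 and 1.11.

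Antioxidant genes divided. Of 22 members 4 rose and 5 fell (median −0.14, and 0.15 with library totals alone), beside 4.48% and 6.76% of all genes. Rising counts were 1 on leaving out animal 5, 1 on leaving out animal 3 and 2 on leaving out animal 2. Falling counts were 2 on leaving out animal 5 and 3 on leaving out animal 3. NQO1 (ENSSSCG00000002754), a quinone reductase and target of NRF2, was at 38.2, 31.5, 24.2 and 54.2 CPM at B and 105, 121, 658 and 213 at FR8 (log2 fold change 2.77 ± 0.68, adjusted p = 0.0147), with animal 4 far above the others at FR8, and its log2 fold change was 1.82 without that animal. GSS (ENSSSCG00000007287), glutathione synthetase, was at 10.7, 10.5, 6.97 and 12.5 and then 27.5, 29.3, 37.3 and 32.8 (log2 fold change 1.67 ± 0.26, adjusted p = 0.002), and PRDX1 (ENSSSCG00000003914), peroxiredoxin 1, at 109, 98.4, 134 and 105 and then 438, 196, 501 and 329.8 (log2 fold change 1.67 ± 0.44, adjusted p = 0.0202). TXNRD1 rose as well (1.09 ± 0.33). Those that fell were mostly glutathione transferases. GSTZ1 (ENSSSCG00000002396), which also serves tyrosine breakdown, went from 344, 236, 367 and 428 to 109, 48.9, 109 and 68.2 (log2 fold change −2.09 ± 0.34, adjusted p = 0.00221), GSTM4 (ENSSSCG00000006822) from 59.8, 79.3, 47.2 and 63.4 to 17.6, 17.8, 22.3 and 19.7 (log2 fold change −1.74 ± 0.43, adjusted p = 0.0161) and GSTK1 (ENSSSCG00000016466), of mitochondria and peroxisomes, from 507, 232, 407 and 549 to 185, 80.5, 142 and 137 (log2 fold change −1.63 ± 0.24, adjusted p = 0.00156). MGST3 (−1.63 ± 0.3) and PRDX6 (−1.08 ± 0.32) fell too, and the regulator NFE2L2 (−0.15 ± 0.22) and its inhibitor KEAP1 (−0.32 ± 0.27) were not called. NQO1, PRDX1 and GSTM4 were no longer called without animal 5 (log2 fold changes 3.06, 1.69 and −1.74). Leaving out animal 3 ended the calls of NQO1, PRDX1 and GSTM4 (log2 fold changes 3.12, 1.89 and −1.54). The calls of PRDX1 and GSTM4 did not hold without animal 2 (log2 fold changes 1.59 and −1.71).

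In the apoptosis list 3 of 22 members rose and 2 fell, beside 4.48% and 6.76% of all genes, so that the falling share is near that of all genes (median 0.43). Of those that rose, the death receptor FAS (ENSSSCG00000010448) was at 2.99, 2.53, 2.56 and 1.69 CPM at B and 5.14, 9.003, 9.33 and 9.51 at FR8 (log2 fold change 1.71 ± 0.37, adjusted p = 0.00893) and the initiator CASP8 (ENSSSCG00000028157) at 3.35, 1.41, 2.27 and 2.995 and then 8.45, 6.800, 6.17 and 9.31 (log2 fold change 1.62 ± 0.37, adjusted p = 0.0108). TP53INP1 (ENSSSCG00000023609), a stress-induced protein, fell from 748, 716, 1042 and 548 to 41.2, 56.5, 64.2 and 60.8 (log2 fold change −3.67 ± 0.6, adjusted p = 0.00237), and GADD45B (ENSSSCG00000022689), an early stress gene, from 581, 262, 217 and 237 to 39.04, 52.2, 8.604 and 28.7 (log2 fold change −3.25 ± 0.78, adjusted p = 0.0135). TP53INP1 and GADD45B had no overlap between times. Counts were 1 on leaving out animal 5 and 6 with library totals alone for members that rose and 1 on leaving out animal 5, 1 on leaving out animal 3 and 1 on leaving out animal 2 for those that fell. Without animal 5 the calls of FAS, CASP8 and GADD45B were lost, at log2 fold changes of 1.52, 1.64 and −3.37. GADD45B was no longer called without animal 3 (log2 fold change −3.59). Leaving out animal 2 ended the call of GADD45B (log2 fold change −3.02). The list of zinc transporters does not hold SLC39A14 because that gene is counted among the acute phase proteins. It gave 2 rises and 0 falls among 13 members, beside 4.48% and 6.76% of all genes, with a median of −0.097 (0.22 with library totals alone). The rises were SLC39A13 (ENSSSCG00000013238) (11.6, 14.5, 12.5 and 13.4 and then 36.7, 46.3, 23.1 and 76.8 CPM, log2 fold change 1.69 ± 0.29, adjusted p = 0.00295) and SLC39A1 (ENSSSCG00000006561) (30.7, 36.3, 28.7 and 29.7 and then 104, 78.8, 75.9 and 136, log2 fold change 1.61 ± 0.27, adjusted p = 0.00266). Of 26 ribosome biogenesis genes 1 was called, beside 11.2% of all genes, and the median was −0.24 (0.046 with library totals alone). It was POLR2H (ENSSSCG00000022507), a subunit shared by the RNA polymerases (29.6, 32.2, 39.9 and 33.3 and then 86.8, 124, 106 and 175 CPM, log2 fold change 1.82 ± 0.36, adjusted p = 0.00575). The call of POLR2H did not hold without animal 5 (log2 fold change 1.64).

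Markers of cell types were summed per library. The biopsies carried the markers of liver, with 10 hepatocyte markers at 154072 to 236673 summed CPM at B and 79660.5 to 124433 at FR8, lower in 4 of 4 animals (log2 difference −1.05 ± 0.37, mean ± SD, n = 4, exact sign-flip permutation p = 0.13). The smallest p that 4 pairs allow is 0.13. Most of that sum is albumin, and without it the log2 difference was −0.57. In the list 1 marker (FGB) rose while the other 9 were not called. In whole biopsies, fewer cells of a type and less RNA per cell cannot be told apart. Striated muscle markers were at 0.375 to 1.302 summed CPM at B and 0.06296 to 0.409 at FR8, and none was tested.

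Of the markers of T and NK cells 8 of 16 tested fell and 0 rose (median −1.03), beside 6.76% and 4.48% of all genes. The falling count was 2 on leaving out animal 5, 4 on leaving out animal 4, 3 on leaving out animal 3 and 2 with library totals alone. Their summed level over 25 members, 3 of them at 0 in every library, was 116, 92.8, 141 and 126 CPM at B and 73.6, 46.7, 61.5 and 55.9 at FR8. All 4 FR8 sums were below all 4 B sums (log2 difference −0.99 ± 0.24, exact sign-flip permutation p = 0.13, n = 4). IL2RB (ENSSSCG00000029668), the interleukin-2 receptor beta chain, was at 15.1, 11.9, 21.8 and 19.01 CPM at B and 3.49, 2.83, 5.52 and 5.63 at FR8 (log2 fold change −1.97 ± 0.32, adjusted p = 0.00221), SKAP1 (ENSSSCG00000017527), a T cell adaptor, at 3.17, 1.87, 3.41 and 1.69 and then 0.276, 0.252, 0.487 and 0.512 (log2 fold change −2.73 ± 0.54, adjusted p = 0.00528), and the chemokine CCL5 (ENSSSCG00000017705) at 34.7, 22.8, 42.2 and 33.3 and then 20.02, 12.4, 16.6 and 15.04 (log2 fold change −1.03 ± 0.19, adjusted p = 0.00424). CD5 (ENSSSCG00000013115) (−1.63 ± 0.53), CD2 (−1.2 ± 0.33), CD4 (−1.03 ± 0.33), CD8A (−1.4 ± 0.43) and IL7R (−1.51 ± 0.41) fell as well, while CD3D (log2 fold change −0.69 ± 0.52, adjusted p = 0.384), LCK (−0.86 ± 0.35) and NKG7 (0.087 ± 0.21) were not called. Of the B and plasma cell markers, CD79B (ENSSSCG00000017283) alone was tested and fell, at 2.29, 0.656, 0.711 and 1.43 CPM at B and 1.01, 0.252, 0.0812 and 0.102 at FR8 (log2 fold change −1.99 ± 0.64, adjusted p = 0.0483), levels of a few counts. Without animal 5 the calls of CD5, CCL5 and CD79B were lost, at log2 fold changes of −1.46, −0.97 and −1.5. CD5, CCL5 and CD79B were no longer called without animal 4 (log2 fold changes −1.45, −0.94 and −1.83). Leaving out animal 3 ended the calls of CD5 and CD79B (log2 fold changes −1.65 and −2.18). CD5, CCL5 and CD79B were not called with library totals alone, and CD79B was not called with no term for the animal.

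Neutrophil markers lay higher at FR8. Their summed level over 10 members was 9.600, 7.12, 6.54 and 5.86 CPM at B and 23.1, 43.6, 10.7 and 13.3 at FR8, higher in 4 of 4 animals with no overlap (log2 difference 1.33 ± 0.79, exact sign-flip permutation p = 0.13, n = 4), and animal 3 was the highest at FR8. S100A12 (ENSSSCG00000006589) was at 0.969, 0, 0.142 and 0.1302 CPM at B and 4.23, 14.4, 1.46 and 3.07 at FR8 (log2 fold change 4.11 ± 0.94, adjusted p = 0.0109) and S100A9 (ENSSSCG00000006588) at 1.94, 0.281, 1.42 and 0 and then 8.18, 12.9, 1.46 and 2.15 (log2 fold change 2.66 ± 0.76, adjusted p = 0.03). Both encode calcium-binding proteins of granulocytes, and at B several of these values are 0 to 3 counts. The size of the S100A12 change rested on single animals, with log2 fold changes of 5.91 without animal 2 and 3.08 without animal 3, and S100A9 was at 3.58 without animal 4. S100A8 was not called (log2 fold change 2.11 ± 1.03, adjusted p = 0.172). The calls of S100A12 and S100A9 did not hold without animal 5 (log2 fold changes 4.04 and 2.41). Without animal 3 the call of S100A9 was lost, at a log2 fold change of 1.76. S100A9 was no longer called without animal 2 (log2 fold change 2.87). S100A9 was not called with no term for the animal, nor in the 8 libraries at B and FR8 alone. Neither S100A9 nor S100A12 was called with all 91 usable libraries of the series in 1 fit.

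Other resident cells gave mixed values. Kupffer cell and macrophage markers summed to 470.3, 462, 550.3 and 599 CPM at B and 509, 337, 302 and 321 at FR8, lower in animals 3, 4 and 5. MSR1 (ENSSSCG00000006979), a scavenger receptor, rose from 9.78, 11.2, 5.69 and 10.5 to 17.2, 25.1, 17.9 and 15.4 (log2 fold change 1.05 ± 0.27, adjusted p = 0.0168), while C1QA (ENSSSCG00000003524) (log2 fold change −0.75 ± 0.24, adjusted p = 0.0449) and MRC1 (ENSSSCG00000011038) (log2 fold change −0.13 ± 0.23, adjusted p = 0.737) were not called. Of the endothelial markers, LYVE1 (ENSSSCG00000029886) of sinusoidal and lymphatic endothelium rose from 39.3, 65.4, 37.1 and 28.00 to 119.5, 104, 72.3 and 103 CPM (log2 fold change 1.28 ± 0.25, adjusted p = 0.00495) and OIT3 (ENSSSCG00000010293) of sinusoidal endothelium fell from 53.4, 67.3, 62.3 and 55.2 to 26.8, 14.4, 19.97 and 2.97 (log2 fold change −2.02 ± 0.5, adjusted p = 0.0151). The other 6 were not called, among them PECAM1 (ENSSSCG00000017277) (log2 fold change 0.6 ± 0.15, adjusted p = 0.0178) and EGFL7 (ENSSSCG00000005828) (log2 fold change 0.2 ± 0.32, adjusted p = 0.693), and the sums overlapped, 349 to 415 at B and 388 to 522 at FR8. Of 11 stellate cell and fibroblast markers tested 2 rose and 0 fell, beside 4.48% and 6.76% of all genes. The median was −0.25 and 7 of the 11 estimates were below 0. Their summed level was lower at FR8 in animals 3, 4 and 5. Those that rose were HGF (ENSSSCG00000015403), hepatocyte growth factor, from 3.08, 9.84, 3.13 and 5.47 to 21.5, 19.1, 10.3 and 14.5 CPM (log2 fold change 1.75 ± 0.36, adjusted p = 0.00631) and LRAT (ENSSSCG00000008995), which stores retinol as esters, from 1.41, 5.34, 5.26 and 4.17 to 12.6, 8.81, 9.496 and 15.4 (log2 fold change 1.63 ± 0.41, adjusted p = 0.0164). The collagens COL3A1 (ENSSSCG00000016034) (log2 fold change −0.25 ± 0.24, adjusted p = 0.512) and COL1A2 (ENSSSCG00000015326) (log2 fold change −0.25 ± 0.25, adjusted p = 0.505) were not called and changed sign with library totals alone. Leaving out animal 5 ended the calls of MSR1, LYVE1, OIT3 and LRAT (log2 fold changes 1.23, 1.09, −1.54 and 1.57). The call of MSR1 did not hold without animal 4 (log2 fold change 0.84). Without animal 3 the calls of MSR1 and OIT3 were lost, at log2 fold changes of 1.06 and −1.92. MSR1 and LRAT were no longer called without animal 2 (log2 fold changes 1.15 and 1.17). MSR1 was not called with no term for the animal.

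No cholangiocyte, erythroid or adipocyte marker was called. Cholangiocyte markers summed to 59.9 to 88.3 CPM at B and 73.3 to 194 at FR8, with SPP1 (ENSSSCG00000009216), osteopontin, at 46.9, 45.4, 37.8 and 27.1 and then 51.8, 140.3, 54.5 and 113 (log2 fold change 1.01 ± 0.41, adjusted p = 0.105) and EPCAM (ENSSSCG00000008429) at 0.37 ± 0.3. SPP1 and EPCAM were the only 2 of the 5 tested with estimates above 0. The other 3 lay below 0, and the median was −0.35. The mean log2 difference of the sum was 0.61, and −0.18 without SPP1. Erythroid markers summed to 4.497 to 8.85 and then 1.29 to 5.48, with HBM (ENSSSCG00000007977) at −1.82 ± 0.89. Adipocyte markers summed to 8.72 to 17.1 and then 10.96 to 13.8, with CIDEC (ENSSSCG00000011557) at 0.11 ± 0.43 and PLIN4 (ENSSSCG00000013512) at 0.058 ± 0.82. The part of these cell types in the changes of other genes was not tested.

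Levels at FR2 and FR20 place FR8 within each animal's course and were not tested here. HSPA5 averaged 605 ± 274 CPM at B (mean ± SD, n = 4), 1768 ± 973 at FR2, 4579 ± 2505 at FR8 and 2408 ± 1630.0 at FR20. ITIH4 averaged 1113 ± 220.4, 4008 ± 1832, 12123 ± 8177 and 12488 ± 10011 at the same times. IDI1 averaged 543 ± 54.5, 305 ± 187, 17.5 ± 5.23 and 91.5 ± 71.4. The means of HSPA5 and IDI1 were furthest from B at FR8, whereas that of ITIH4 was about as high at FR20, with a wide spread among animals. At FR20 IDI1 stood at 82.04, 13.1, 186 and 84.3 CPM, so animals differed more at that time than at FR8. Per animal, the median change of the 20 cholesterol genes from B, in log2 of CPM plus 1, was 0.15, −0.36, −0.29 and −1.11 at FR2, −2.65, −2.51, −1.82 and −2.42 at FR8 and −1.54, −2.53, 0.041 and −1.11 at FR20. The unfolded protein response list stood at 0.43, 0.34, 0.73 and 0.7, then 0.99, 0.99, 1.63 and 1.42 and then 0.39, 1.19, 0.02 and 1.2. Animal 4 was back near its B level for both lists at FR20, whereas animal 3 was not. The positive acute phase list stood at 0.2, 0.36, 1.05 and 0.85, then 1.46, 1.28, 1.4 and 1.3 and then 0.74, 0.71, 0.36 and 0.14, and at FR8 the 4 animals lay closer together than at the other times. Of the neutrophil markers called at FR8, both were higher at FR2 in most animals. S100A9 was at 45.8, 13.5, 7.48 and 5.18 CPM at FR2 and S100A12 at 22.1, 7.62, 4.61 and 3.92, S100A9 above its FR8 value in each animal and S100A12 in animals 2, 4 and 5.

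**Figure D4:**
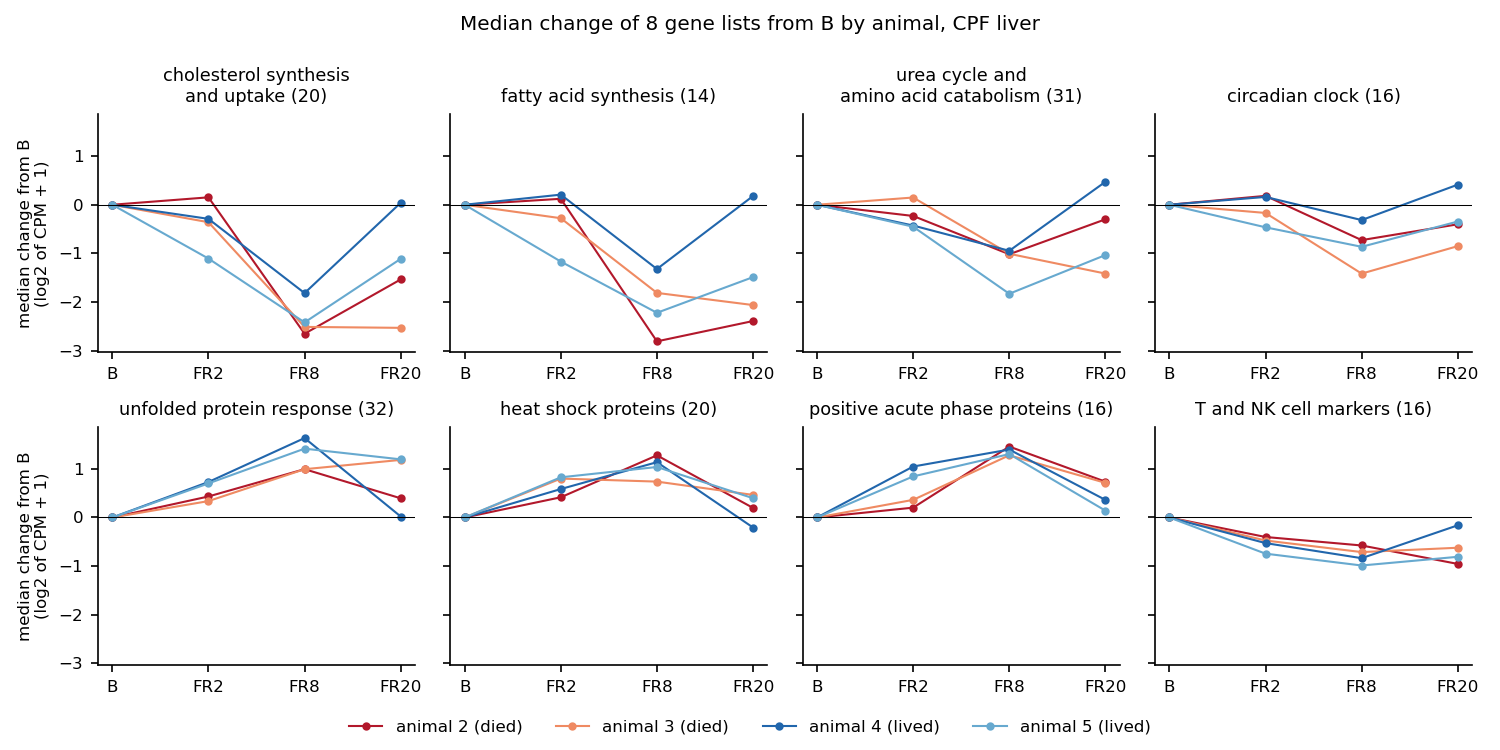
Median change from B of 8 gene lists, in log2 of CPM plus 1 (y axis), at B, FR2, FR8 and FR20 (x axis), with 1 line per CPF animal and the number of genes in each title. Cholesterol genes lie at −2.65 to −1.82 at FR8, and at FR20 animal 4 is back at 0.041 while animal 3 is at −2.53.

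Whether the change from B to FR8 in CPF liver differed from that in the 18 fasted (FS) animals was tested as a difference of changes in 1 fit of 88 libraries. Of 13892 genes tested 0 were called (0%). At an unadjusted p under 0.05 the fit gave 555 genes, and the smallest adjusted p was 0.978. DESeq2 called 13 genes and the edgeR likelihood ratio test 0. On simulated counts of this design 51% of genes given a difference of 1.5 and 79% of those given 2.5 on the log2 scale were recovered, so smaller differences could pass unseen. At B, 3 FS animals carried 29181 to 35852 CPM of striated muscle genes and the other 15 at most 35.5. Without those 3 animals 0 of 13483 genes were called (0%), 562 had an unadjusted p under 0.05 and the smallest adjusted p was 0.458.

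Changes of the leading CPF genes are given beside those of all 18 FS animals, from the fit of 88 libraries, and of FS without the 3 animals of high striated muscle counts. The genes were chosen by their calls and changes in these same CPF animals. That choice by itself favors larger changes in CPF than in FS, so the sizes are given as a description. IDI1 was at −4.93 in CPF and −2.43 ± 0.66 in FS (difference −2.5 ± 1.3), and at −3.51 in FS without the 3 (difference −1.43 ± 0.89). FASN was at −3.68 in CPF and −3.12 ± 0.68 in FS (difference −0.56 ± 1.31), and at −4.26 in FS without the 3 (difference 0.58 ± 0.98). HSPA5 was at 2.93 in CPF and 2.24 ± 0.4 in FS (difference 0.69 ± 0.85), and at 2.37 in FS without the 3 (difference 0.56 ± 0.76). CRYAB was at 2.91 in CPF and 0.77 ± 0.7 in FS (difference 2.13 ± 1.39), and at 2.06 in FS without the 3 (difference 0.85 ± 1.03). ITIH4 was at 3.27 in CPF and 2.89 ± 0.44 in FS (difference 0.38 ± 0.93), and at 2.76 in FS without the 3 (difference 0.51 ± 0.68). None of these differences passed the threshold in either fit. The FS changes of IDI1, FASN and CRYAB were larger without the 3 animals. By list, the median change was −2.54 in CPF and −1.31 in FS (−2.14 without the 3 animals) for cholesterol synthesis, 1.37 in CPF and 1.0 in FS (1.03) for the unfolded protein response and 1.55 in CPF and 1.35 in FS (1.22) for positive acute phase proteins. Of the named genes, those with the smallest unadjusted p of the difference without the 3 FS animals were IL2RB (−1.09 ± 0.29, unadjusted p = 0.000363, adjusted p = 0.646), GSKIP (0.85 ± 0.3, unadjusted p = 0.00589, adjusted p = 1), SKAP1 (−1.54 ± 0.54, unadjusted p = 0.00649, adjusted p = 1) and CDO1 (−1.42 ± 0.52, unadjusted p = 0.00871, adjusted p = 1). These were picked by that p from all named genes and did not pass after adjustment. In the plot of both groups which holds the 96 named genes called in CPF liver, all points lie in the quadrants of equal direction.

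**Figure D5:**
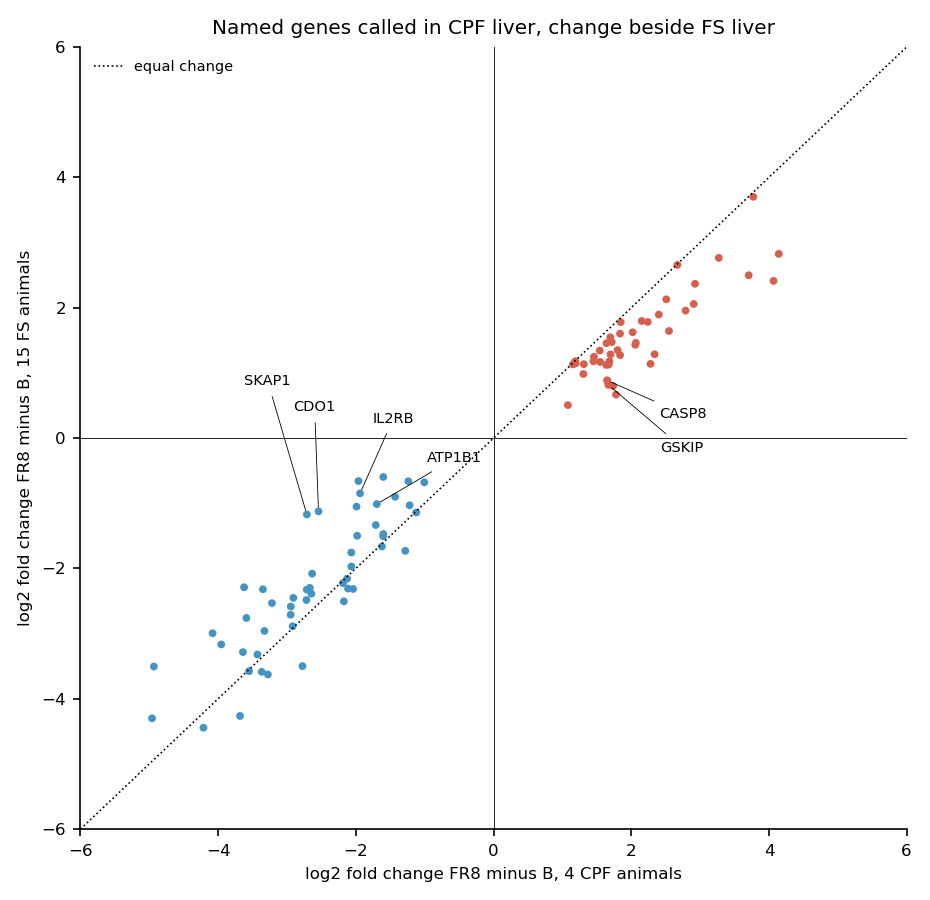
Log2 fold change FR8 minus B in 4 CPF animals (x axis) and in the 15 FS animals without high striated muscle counts at B (y axis), from 1 fit, for the named genes called in CPF liver, with a dotted line of equal change. The 6 labelled genes have the smallest unadjusted p of the difference, and all points share their sign in both groups.

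Within the CPF animals, the change from B to FR8 of the 2 that died was set against that of the 2 that lived. Of 11554 genes 0 were called (0%), 456 had an unadjusted p under 0.05 and the smallest adjusted p was 0.112. DESeq2 called 11 and the edgeR likelihood ratio test 7. Without animal 5, which leaves 1 animal that lived and assumes it to vary like the others, 40 genes were called. On simulated counts this comparison recovered 2% of differences of 1.5 and 15% of differences of 2.5 on the log2 scale, so it could detect few differences of that size.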

How the data were processed

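Liver biopsies were sequenced at B, FR2, FR8 and FR20. Per the labels, RNA was extracted with the RNeasy kit and libraries made from 1 microgram of total RNA with the Illumina TruSeq kit. The submitters' processing notes name CASAVA 1.8.2, TopHat 1.5.0, SAMtools, HTSeq, edgeR 3.2.4 and the build Sscrofa10.2. The authors deposited 1 table of raw counts per pig Ensembl identifier, not normalized and not pooled. The strand setting of the counting is not given in the sources used here, so overlapping and antisense genes cannot be told apart. All columns matched a library. Of 25322 identifiers 12504 received a symbol, 11804 from a gene name table and 700 from symbol pairs in the study's supplementary tables alone.

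Counts were tested with edgeR 4.0.16 in R 4.3.3 (TMM, quasi-likelihood F test, 2-sided) on the 16 libraries of CPF animals 2 to 5, with terms for each animal and for FR2, FR8 and FR20. Genes needed CPM that summed to 10 or more, and calls an adjusted p under 0.05 with a change of 1 or more on the log2 scale. Marker sums were compared by an exact sign-flip permutation test of log2 summed CPM plus 1. Alternatives used DESeq2 1.42.0, limma 3.58.1, the likelihood ratio test, other scalings, filters and libraries, and each animal left out. Library totals of 8444057 to 12036356 counts set the precision, and 3 counts were taken as the floor. Python 3.11.15 with matplotlib 3.10.9, pandas 2.3.3 and numpy 2.4.6 drew the figures.

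The comparison, the members and the gene lists were chosen with earlier results of these data known. Genes named in full are the 12 rising and 12 falling genes of smallest adjusted p among called genes with a symbol, the same direction in 4 of 4 animals and over 3 counts in a library of each time, up to 3 called members of each list in each direction by log2 fold change, the 2 most abundant members of each marker list, and HSPD1, MYD88 and STAT3. Other list members were named with their values known, and some genes counted in the lists are not reported here by name. Where several identifiers shared a symbol, each was fitted alone. On simulated counts for FR8 minus B, 100 genes were changed by 1.5 and 100 by 2.5 on the log2 scale. Of these 75 and 90 were recovered, with 11 false calls among 11416 genes. In every simulation the changed genes lay above a minimum level and no differences between animals were simulated. The rates therefore need not hold for the data.

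Pairs follow the animal codes of the labels. Deviations from the time means correlated within animals 2 to 5 at 0.11, 0.44, −0.077 and 0.10. Between different animals the values ran from −0.29 to 0.196. The B library of animal 4 correlated at 0.15 with FR8 of animal 2, at 0.196 with animal 5 and at −0.27 with animal 3. FR8 of animals 2 and 5 thus correlated more with B of animal 4 than with their own B, at 0.11 and 0.10. Only in animal 3 was the animal's own pair the highest for both of its libraries. For animals 2, 4 and 5 the pairing rests on the labels. Libraries of 1 group differed by more than counting noise, so none was a duplicate. No sequencing batch is in the labels and no batch term was fitted.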

Additional observations from a re-analysis of the deposited data

Results flagged for a closer look

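Of 126 groups of 4 within-animal changes, library totals or TMM factors, 11 (8.73%) had 1 animal far from the others. The criterion was Dixon's 95% value for the gap over the range, which chance alone passes in about 1 of 20 independent groups. The groups here share the same animals and most genes were chosen by their calls, so these rates cannot be compared. In the 11 flagged groups the animal that stood apart was animal 5 in 5, animal 2 in 3, animal 4 in 2 and animal 3 in 1.

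Animal 5 had the smallest FR8 library, 8855156 counts against 11639648 to 11929774 in the others. Its change was −3.28 on the log2 scale for the glucose-6-phosphate transporter SLC37A4, against −1.78 to −1.66 in the others. IGFALS changed by −2.88 in animal 5 and by −1.87 to −1.78 in the others, and GSTK1 by −2.003 against −1.53 to −1.45. The summed level of B and plasma cell markers changed by −1.47 in animal 5 and by −0.63 to −0.47 in the others.

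Animal 2 stood apart for the ER lectin MLEC, with 1.32 against 2.61 to 2.77, for cysteine dioxygenase CDO1, with −1.13 against −3.07 to −3.03, and for the efflux pump ABCC3, with −0.066 against 1.35 to 1.57. Animal 4 stood apart for NQO1, with 4.76 against 1.45 to 1.97, and for GSS, with 2.39 against 1.35 to 1.47. Animal 3 stood apart for ALAS2, of erythroid heme synthesis, with 0.15 against −2.41 to −2.21.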

How the results depend on the processing

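With all 91 usable libraries in 1 fit, 409 genes were called, 223 rising and 186 falling, and 29.1% of the calls of the CPF fit were kept. In that fit 55 named genes lost their call. Among them were TLR2, NNMT, LBP, FOXA1, FGA and CERS4 of the leading genes that rose. TMEM86B, ACOT13, MIOX, INMT, FTCD and NR1I2 of the leading genes that fell were lost as well. Scaling by library totals alone, chosen after the data were seen, gave 987 rising and 427 falling. Adjusted p alone passed 1958 genes. Leaving out each animal gave 265 to 1461 calls, 93 to 554 rising and 172 to 907 falling. With no replicate block 1041 genes were called against 1299, with 77.2% of calls kept, and the interaction stayed at 0. Of 96 called named genes, 25 stayed called under every alternative and 49 without each animal in turn. FASN, ITIH3, ERN1, BAAT, PDK4, IGFBP1, IGFALS, S100A9, MSR1 and CD79B were lost without the block.

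The died minus lived count was 11 with DESeq2, 7 with the likelihood ratio test and 0 to 40 on leaving out each animal. The interaction count was 13 with DESeq2. Values that changed sign were of genes not called, PLIN4 (−0.18 with no replicate block, −0.61 to 1.18 on leaving out each animal, −0.54 without animal 3), CIDEC (−0.16 to 0.54), MRC1 (−0.36 to 0.054), and with library totals alone MRC1 (0.16), COL3A1 (0.044) and COL1A2 (0.044). The stellate sum changed to 0.078 as a share of the library's own total and the cholangiocyte sum to −0.18 without SPP1. The causes were not tested.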

Other observations

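The genes of these paragraphs are outside the lists and were picked after their values were seen, so they are given singly and stand for no group. ADH4 (389 CPM at B and 9.31 at FR8, −5.27 ± 1.05, adjusted p = 0.00562), the class II alcohol dehydrogenase, fell, as did CYP1A2 (442 CPM at B and 50.8 at FR8, −3.02 ± 0.99, adjusted p = 0.04998) and CYP2E1 (4575 CPM at B and 1176 at FR8, −1.98 ± 0.46, adjusted p = 0.0124), monooxygenases of drug and ethanol metabolism, and FMO5 (807 CPM at B and 133 at FR8, −3.53 ± 0.8, adjusted p = 0.0107), a flavin monooxygenase. XDH (388 CPM at B and 34.5 at FR8, −3.93 ± 0.56, adjusted p = 0.00132), xanthine dehydrogenase of purine breakdown, fell in the same comparison. TSC22D3 (269 CPM at B and 19.2 at FR8, −3.95 ± 0.81, adjusted p = 0.00665), a leucine zipper protein, and KLF9 (399 CPM at B and 31.8 at FR8, −3.72 ± 0.69, adjusted p = 0.00424), a transcription factor, fell as well, together with USP2 (61.7 CPM at B and 2.77 at FR8, −4.42 ± 0.78, adjusted p = 0.00329), a deubiquitinase with a daily rhythm in liver, and ULK1 (266 CPM at B and 39.6 at FR8, −3.3 ± 0.68, adjusted p = 0.00654), the kinase that starts autophagy. Values are mean CPM over 4 animals and log2 fold changes with standard errors and adjusted p-values from edgeR's quasi-likelihood test.

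Among genes that rose outside the lists were FKBP1B (2.68 CPM at B and 26.1 at FR8, 3.42 ± 0.5, adjusted p = 0.00135), a calcium channel partner, UNC5CL (3.32 CPM at B and 52.6 at FR8, 3.63 ± 0.69, adjusted p = 0.00459), a death-domain protein, and LGALS3 (1.01 CPM at B and 12.6 at FR8, 3.66 ± 0.68, adjusted p = 0.00417), galectin 3, which macrophages and injured epithelium make. HSPA4L (0.316 CPM at B and 5.38 at FR8, 3.86 ± 0.77, adjusted p = 0.00562), a member of the HSP110 family, also rose. None of these genes entered a count of the lists.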
